A study of Arabidopsis thaliana with 40 samples.

Results

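The pericentromeric bins are 500-nt stretches of the Arabidopsis nuclear genome in which smRNA reads were counted. They were chosen by position alone, as 1 run of bins on each nuclear chromosome. The rule gave 30100 of the 239338 bins of each table, or 12.6% of the 238295 bins on the 5 nuclear chromosomes, and 208195 nuclear bins lay outside. Together the intervals span 15.05 Mb, at positions 13000001 to 17000000, 3550001 to 5500000, 12000001 to 15500000, 2900001 to 5000000 and 10500001 to 14000000 of chromosomes 1 to 5 (TAIR10).

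smRNAs of 15 to 50 nt and total RNA came from unopened flower buds of soil-grown 30-day-old plants, with 2 libraries per genotype and RNA type in each comparison. The mutants were *rdr1-1*, *rdr2-1*, *rdr3-1*, *rdr4-1*, *rdr5-1* and *rdr6-11*, each in 1 of the 6 RNA-dependent RNA polymerase (RDR) genes, and *sgs3-11* and *rdm12-1*, in genes for RNA-binding cofactors, each a single untreated line compared with untreated wild type Col-0. The smRNAs of *rdr3* were compared with 2 Col-0 libraries of their own, and those of the 7 other mutants with the same 2 Col-0 libraries. The bin comparisons therefore share the sampling error of those controls and are given side by side.

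Pericentromeres flank the centromeric satellite arrays and are packed with transposable elements held in heterochromatin. In plants, RNA polymerase IV transcribes such elements, RDR2 copies the transcripts into double-stranded RNA, and DCL3 cuts this RNA into siRNAs that guide DNA methylation through AGO4 and RNA polymerase V. RDR6 and SGS3 act together on other transcripts, such as those that give rise to trans-acting siRNAs, and RDR1 is best known for antiviral defence. microRNAs (miRNAs) are cut from folded single-stranded precursors and need no RDR.

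The deposited tables hold the authors' edgeR comparison of each mutant with Col-0, as a log2 fold change, a mean abundance over all libraries of the set as log2 CPM (read counts scaled to library size), a p-value and a false discovery rate (FDR). They hold no value per library, so no SD between replicates is given, and errors of fold changes are approximate standard errors (SE) worked out from the fold change and its p-value. A decreased bin had an FDR under 0.05 and a log2 ratio no higher than -0.58, and an increased bin an FDR under 0.05 and a log2 ratio no lower than 0.58. Levels per genotype were derived from the mean CPM and the ratios to Col-0. The edgeR floor given to empty bins was a log2 CPM of -4.19 for the 16 libraries of the 7 mutants and Col-0, and -5.36 for the 4 libraries of the *rdr3* comparison. If edgeR's default prior count of 2 was used, these floors correspond to mean library sizes of 36.6 and 82.1 M reads. In total RNA the floral genes *AP1*, *AP3*, *PI*, *AG* and *SEP3* had log2 CPM of 3.24 to 4.91 in the larger set. The mutated gene's transcript was lower in *rdr1* (log2 fold change -2.03), *rdr2* (-4.48), *rdr6* (-2.08) and *sgs3* (-1.41) at edgeR FDRs of 0.0037 or lower. It was not called in *rdr3* (0.14), *rdr4* (-2.76, log2 CPM 0.03) and *rdr5* (0.87), each at an FDR of 1. In the libraries labelled *rdm12* the *RDM12* transcript was higher (1.04, FDR 1.56e-06), which goes against a loss of transcript, and *rdm12* below stands for the libraries so labelled.

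The annotation of the intervals bears out their name. Pseudogenes, the class in which this annotation (RefSeq, TAIR10.1) also files transposable element genes, covered 13639 pericentromeric bins (45.3%), against 5.29% of other nuclear bins. A further 12682 bins (42.1%) held no annotated gene, against 23.1% elsewhere. Protein-coding genes reached into 3164 bins (10.5%), against 69.2% elsewhere. Tandem repeats with a spacing close to the length of the centromere satellite unit filled 261 bins, and only 8 bins outside the intervals. Of the 261, 251 repeated best at 178 nt, 140 lay on chromosome 4 and 82 on chromosome 5. The remaining bins held miRNA genes (37), rRNA genes (5) or other non-coding genes (312). Unresolved bases occurred in 490 bins.

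Sequence from the middle of 4 bins shows what kinds of DNA the values below belong to, as 300 nt of each bin on the forward strand, from the RefSeq sequence of TAIR10.1. The most abundant members are those with the highest mean log2 CPM over the 16 libraries, *rdr2* included. The lowest fold changes are those among decreased bins with a log2 CPM of at least 0. Capitals mark bases in at least one 24-nt word that occurs once in the genome, so smRNAs from the lower-case stretches can map to several places.

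Chr3_28405 (the most abundant member, chr3:14202101-14202400, in the *AT3G06365* misc_RNA beside the rRNA genes): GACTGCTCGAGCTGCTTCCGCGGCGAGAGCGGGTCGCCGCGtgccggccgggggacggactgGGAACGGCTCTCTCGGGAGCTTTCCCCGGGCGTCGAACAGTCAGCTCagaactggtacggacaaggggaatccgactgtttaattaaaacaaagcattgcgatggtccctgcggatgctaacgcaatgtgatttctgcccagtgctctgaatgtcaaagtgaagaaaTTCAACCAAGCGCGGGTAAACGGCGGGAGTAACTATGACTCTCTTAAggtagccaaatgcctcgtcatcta

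Chr2_7244 (the most abundant member that was decreased in *rdr2*, chr2:3621601-3621900, a satellite-like tandem repeat that overlaps the protein-coding gene *AT2G08986*): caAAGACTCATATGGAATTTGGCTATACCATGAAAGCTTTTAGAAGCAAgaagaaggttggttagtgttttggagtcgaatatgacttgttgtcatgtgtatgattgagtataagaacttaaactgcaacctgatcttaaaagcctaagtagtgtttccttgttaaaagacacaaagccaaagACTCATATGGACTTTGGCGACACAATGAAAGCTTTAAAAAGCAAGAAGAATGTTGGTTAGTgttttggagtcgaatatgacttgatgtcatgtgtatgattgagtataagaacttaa

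Chr3_29007 (the lowest fold change in *rdr2*, chr3:14503101-14503400, no annotated gene): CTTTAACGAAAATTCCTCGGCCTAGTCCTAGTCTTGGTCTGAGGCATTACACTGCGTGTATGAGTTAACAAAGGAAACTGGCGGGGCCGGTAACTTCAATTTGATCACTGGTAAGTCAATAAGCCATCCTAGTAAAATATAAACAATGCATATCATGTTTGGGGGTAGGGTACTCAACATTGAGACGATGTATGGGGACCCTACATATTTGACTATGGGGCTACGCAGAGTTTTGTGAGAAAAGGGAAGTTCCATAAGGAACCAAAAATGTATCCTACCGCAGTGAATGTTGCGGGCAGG

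Chr1_33513 (the lowest fold change in *rdr6*, chr1:16756101-16756400, in the lncRNA *AT1G07237*): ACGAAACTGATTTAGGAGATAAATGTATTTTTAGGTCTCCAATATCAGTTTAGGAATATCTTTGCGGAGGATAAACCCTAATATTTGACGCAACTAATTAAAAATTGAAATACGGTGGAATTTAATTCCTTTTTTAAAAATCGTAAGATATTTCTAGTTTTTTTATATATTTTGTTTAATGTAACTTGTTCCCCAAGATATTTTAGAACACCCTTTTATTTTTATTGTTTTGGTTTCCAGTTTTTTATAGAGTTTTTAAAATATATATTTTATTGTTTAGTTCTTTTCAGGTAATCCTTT

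The rRNA-linked stretch had 135 of 300 bases in unique words and a GC content of 56%, and the satellite-like stretch had 108 of 300 and 35%. In the bin of the satellite-like stretch 91.4% of bases were the same as the base 178 nt further on. The other stretches were unique at every base, with GC contents of 44% and 25%.

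smRNAs were more abundant in the median pericentromeric bin than in the median bin outside. In these whole buds, fewer cells of a type and less RNA per cell cannot be told apart. The median pericentromeric bin had a log2 CPM of 0.01 (quartiles -1.57 and 1.82), against -3.66 (-3.94 and -2.96) for other nuclear bins, close to the floor. A log2 CPM of at least 0 was reached by 15072 pericentromeric bins (50.1%), against 25125 other nuclear bins (12.1%). The *rdr3* set gave 3039 (10.1%) against 6517 (3.13%). Pseudogene and transposable element bins had a median log2 CPM of 0.71, against 0.56 outside, and satellite-like bins of 2.59, against 1.06 in the 8 outside. Bins without an annotated gene had -0.40, against -3.94, and protein-coding bins -2.85, against -3.66. Where every 24-nt word was unique, the medians were -2.19 in the intervals and -3.77 elsewhere. The part of class make-up and of reads that map to several places in the difference was not tested. Only 378 members sat at the floor of the larger set, and 1635 at that of the *rdr3* set.

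**Figure D1:**
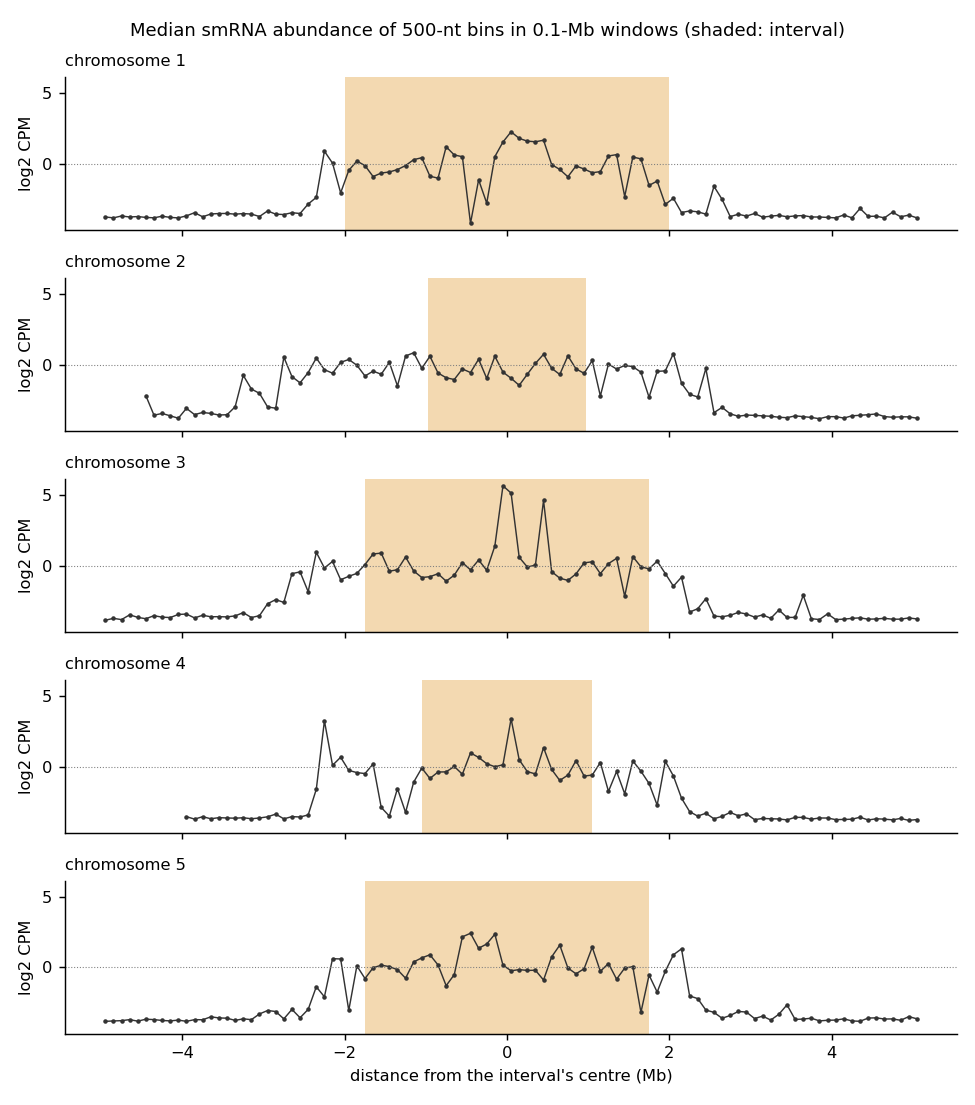
Median smRNA abundance (log2 CPM, mean of the 16 libraries of 7 mutants and Col-0) of 500-nt bins in 0.1-Mb windows against the distance from the centre of each interval in Mb, 1 panel per chromosome, with the interval shaded. Medians are higher in and around most shaded intervals than farther out, where they approach the floor of -4.19, and the flanks differ, with low windows directly beyond the end of the chromosome 1 interval. The highest windows are on chromosome 3.

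Abundance dropped by over 1 log2 unit at some borders of the intervals and not at others. Among the 500 bins on either side of each border, the median log2 CPM inside and outside was -0.41 and -0.41 at the end of the chromosome 4 interval, and -0.21 and -0.10 at the start of that of chromosome 1. The largest drop was at the start of the chromosome 3 interval, with 0.83 inside and -0.70 outside, followed by the end of the chromosome 1 interval (-2.25 inside and -3.33 outside) and the start of that of chromosome 5 (0.08 inside and -1.0 outside). At the start of the chromosome 2 interval the bins outside were the more abundant, at -0.11 inside and 0.47 outside. Within 0.5 Mb of the centres the median was 0.52 with 57.7% of bins at a log2 CPM of at least 0, and between 0.5 and 2.0 Mb the medians of the 0.5-Mb steps lay between -0.32 and -0.11. The 5 intervals had medians of 0.11, -0.31, 0.01, -0.11 and 0.16 on chromosomes 1 to 5.

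Of the 154 windows of 0.1 Mb that hold pericentromeric bins, 8 had a median log2 CPM of 2 or more. All 8 were rich in repeats, with median shares of unique 24-nt words between 5.6% and 31.9%. The highest were 2 neighbouring windows of chromosome 3, at 13650001 to 13750000 and 13750001 to 13850000, with medians of 5.64 and 5.13. They held 162 and 170 bins of 200 without an annotated gene, and their bases repeated best at 506 and 505 nt. The window around the rRNA genes of the same chromosome followed, with 4.60. The chromosome 4 window at 3950001 to 4050000 (3.37) and the 3 windows of chromosome 5 (2.16, 2.35 and 2.41) repeated best at 178 nt, and 63 of the 200 bins of the chromosome 4 window were satellite-like. These windows were singled out after their values had been seen.

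In *rdr2*, a larger share of pericentromeric bins was decreased than of all bins. Of the 30100 bins, 6941 (23.1%) were decreased, where 7.8% of all bins of the table were, and 1104 (3.67%) were increased, where 17.1% of all bins were. Among other nuclear bins, 5.63% were decreased and 18.7% increased. The median log2 fold change of the 15072 pericentromeric bins with a log2 CPM of at least 0 was -0.75 (median SE 0.32, 5th and 95th percentiles -1.42 and 0.10), and that of the 25125 other nuclear bins above the same minimum was -0.72. The intervals therefore differed from other abundant bins less in the median than in the upper end, since the 95th percentile was 0.10 in the intervals and 4.29 elsewhere. Among these abundant bins, 43.6% of pericentromeric and 45.2% of other nuclear bins were decreased, while 2.24% and 9.97% were increased.

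The size of the decrease depends on the scale of the *rdr2* table. The 315 bins of the genome that hold a miRNA gene and have a log2 CPM of at least 0 had a median log2 fold change of 4.31 in *rdr2*, and 0.35, 0.22, 0.26, -0.16, 0.14, 0.34 and 0.40 in *rdr1*, *rdr3*, *rdr4*, *rdr5*, *rdr6*, *sgs3* and *rdm12*. Against these miRNA bins the pericentromeric median in *rdr2* was -5.06, a 33.5-fold lower level. With each genotype's levels divided by their total over all bins it was -3.79. On these scales, 99.7% and 99.2% of the 15072 bins lay at least 0.58 below 0, a description without a test. In the other mutants the same median against miRNA bins lay between -0.42 (*rdm12*) and 0.17 (*rdr5*), so that small shifts of either sign in those mutants depend on the scale.

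**Figure D2:**
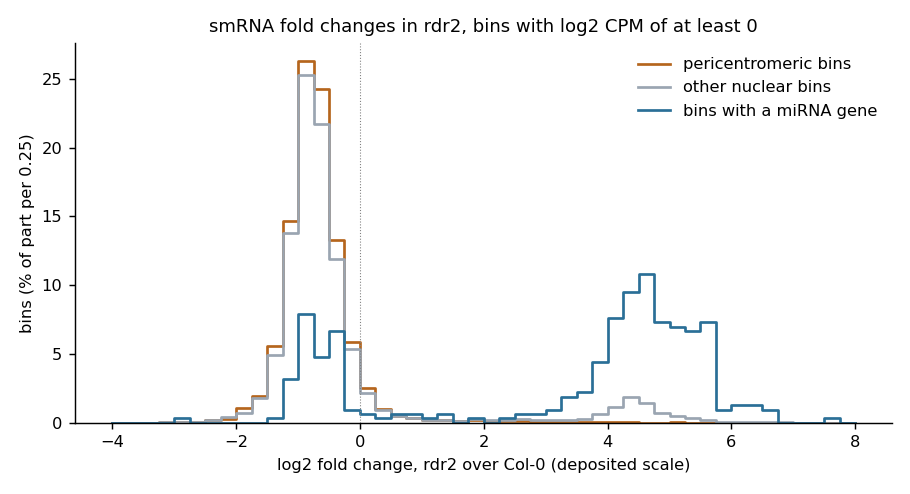
Distribution of the log2 fold change of smRNAs, *rdr2* over Col-0 on the deposited scale (horizontal axis), as the percentage of bins per step of 0.25, for pericentromeric bins (15072), other nuclear bins (25125) and bins with a miRNA gene (315), all with a log2 CPM of at least 0. The pericentromeric bins form a single peak at a median of -0.75, and most bins with a miRNA gene lie around 4.31, where other nuclear bins have a second small peak.

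The median decrease in *rdr2* was similar on the 5 chromosomes and in the 0.5-Mb steps from the centre. The median log2 fold change of bins with a log2 CPM of at least 0 was -0.74, -0.75, -0.74, -0.77 and -0.77 on chromosomes 1 to 5, and 20% (chromosome 2) to 25.3% (chromosome 5) of the bins of an interval were decreased. By 0.5-Mb steps from the centre the medians were -0.73, -0.78, -0.75 and -0.77. The share of bins that were decreased was higher in each step of abundance up to a log2 CPM of 6, in the intervals and outside them, and lower above it. At a log2 CPM of 0 to under 1, 13.3% of pericentromeric and 11.9% of other nuclear bins were decreased. At 2 to under 3 these shares were 60.9% and 58.1%, and at 4 to under 6 they were 79.7% and 76.1%. At 6 and above they were 57.3% and 44.2%. Below a log2 CPM of 0, 2.44% and 0.199% were decreased. Among bins in which every 24-nt word was unique, the median was -0.76 in the intervals and -0.75 elsewhere.

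The classes of sequence had different medians in *rdr2*, which were not tested against each other. Medians are over bins with a log2 CPM of at least 0, and counts of calls over all bins of a class. Pseudogene and transposable element bins had a median of -0.81 (quartiles -1.02 and -0.58), and 4471 of 13639 (32.8%) were decreased, against 27.3% of the same class outside the intervals. Protein-coding bins had a median of -0.72, with 264 of 3164 decreased (8.34%) and 619 increased (19.6%), while among the 671 with a log2 CPM of at least 0, 35.3% were decreased and 3.43% increased. Bins without an annotated gene had a median of -0.67, with 2097 of 12682 decreased (16.5%). Satellite-like bins were close to the fold limit, at a median of -0.55 (quartiles -0.66 and -0.43), and 56 of 261 were decreased and none increased. Their 24-nt words occurred a median of 11 times each, so that their reads are shared among repeats. The 5 bins with an annotated rRNA gene were all increased, with a median of 4.33, at the level of the miRNA bins of the genome. Of the 37 bins with a miRNA gene, 12 were decreased and 16 increased, and their upper quartile was 3.54. In the other nuclear bins with a miRNA gene, 30 of 401 were decreased and 298 increased.

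A small set of pericentromeric bins stood far above the others in *rdr2*. In 151 of the 15072 bins the log2 fold change in *rdr2* was above 2 on the deposited scale, a limit set after the values had been seen. This limit lies below the median of 4.31 of the miRNA bins, so not all of the 151 were higher against those bins. They fell into 122 separate runs, and 58 were pseudogene or transposable element bins, 52 had no annotated gene, 17 were protein-coding, 8 held a miRNA gene and 5 a tRNA gene. The longest stretch was 15 bins in a row on chromosome 3, from 14196001 to 14203500, with log2 fold changes between 2.56 and 5.95. It covers the small-subunit rRNA gene *AT3G41768*, the shorter rRNA gene *AT3G41979* and most of *AT3G06365*, annotated as a misc_RNA, which follows them. Bins with *AT3G06365* alone are counted here with the other non-coding genes, not with the rRNA genes. The next bins, still inside *AT3G06365*, had values of 1.11 and -0.62. At most 14.6% of the 24-nt words of any of the 15 bins were unique, so their reads are shared with other copies.

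Of the 5 most abundant members that were named, 4 belonged to this set. They were ranked on the mean over the 16 libraries, *rdr2* included, so the rule itself favours bins that are high in *rdr2*. In Col-0, Chr3_28405 was below Chr4_6123, and Chr3_27074 and Chr5_27224 were below Chr4_8211. On the deposited scale, where *rdr2* levels have a higher sum than those of Col-0, Chr3_28405, within *AT3G06365*, had a derived level of 23112 CPM in *rdr2*. The other mutants had 1026 (*rdr1*), 1055 (*rdr4*), 870 (*rdr5*), 903 (*rdr6*), 1271 (*sgs3*) and 1068 CPM (*rdm12*), against 1229 CPM in Col-0. Only *rdr2* stood apart on that scale, with a log2 fold change of 4.23 (SE 0.24, edgeR FDR 1.46e-67). Chr4_6123, in the pseudogene *AT4G06477*, was at 14486 CPM in *rdr2* and 2074 CPM in Col-0 (2.80, SE 0.16, FDR 8.59e-66). With levels divided by each genotype's total, *rdr2* log2 fold changes shift by -3.04, which turns the value of Chr4_6123 negative. The miRNA bins had a median of 4.31 in *rdr2*. Against that median Chr3_28405, Chr4_6123 and Chr3_27074 were lower, and Chr5_27224 was higher. Chr3_27074 lies at 13536501 to 13537000 of chromosome 3. Only its first part overlaps the transcribed pseudogene *AT3G32990*, which is annotated up to 13536711. The bin had 3476 CPM in *rdr2* and 197 CPM in Col-0 (4.14, SE 0.34). Chr5_27224 holds *MIR396b*, whose miRNA acts on growth-regulating factor transcripts, and had 4760 CPM in *rdr2* and 160 CPM in Col-0 (4.90, SE 0.74). Chr2_7244, the satellite-like repeat, went the other way with 567 CPM in *rdr2* and 1042 CPM in Col-0 (-0.88, SE 0.12, FDR 9.54e-12). The next most abundant decreased bin, Chr4_8211, has no annotated gene and 98.2% unique words, and had 260 CPM in *rdr2* and 555 CPM in Col-0 (-1.09, SE 0.18).

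Among bins called in *rdr2* with a log2 CPM of at least 0, those that fell furthest were rarer. Chr3_29007, without an annotated gene, had 0.0836 CPM in *rdr2* and 1.12 CPM in Col-0, a log2 fold change of -3.74 (SE 0.86, edgeR FDR 1.57e-04), and between 0.88 and 1.38 CPM in the 6 other mutants of the set. Chr3_27162, in the pseudogene *AT3G33045*, had 0.16 CPM in *rdr2* and 1.71 CPM in Col-0 (-3.42, SE 0.68). Above the same minimum, the strongest increase was that of Chr3_28395, which overlaps *MIR5642a* just before the rRNA genes. It had 315 CPM in *rdr2* and 5.09 CPM in Col-0 (5.95, SE 0.21, FDR 6.26e-170).

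As a share of all nuclear smRNAs, the pericentromeric bins were lower in *rdr2* than in Col-0. They held 3.27% of the summed nuclear CPM in *rdr2*. The shares were 27.5% (*rdm12*), 27.2% (*sgs3*), 25.9% (*rdr6*), 25.9% (*rdr5*), 25.3% (*rdr4*) and 25.8% (*rdr1*), against 23.5% in Col-0. The *rdr2* share was 0.139 times that of Col-0, and those of the other mutants were 1.08 to 1.17 times. Without the 100 most abundant bins of the genome the share was 8.96% in *rdr2* and 33.3% to 34.6% in the other mutants of the set, against 33.6% in Col-0. No error can be put on these shares, and the 8 derived totals had a geometric mean of 0.951 of the total that CPM should give. The totals themselves differed, at 6541158 in *rdr2*, 797377 in Col-0 and 655281 (*rdm12*) to 740903 (*rdr5*) in the other mutants. The levels behind the shares were solved on the deposited scale of the fold changes, and the shares were not worked out on another scale. In *rdr2* the 10 most abundant pericentromeric bins made up 31.1% of the intervals' summed CPM, against 5.09% in Col-0, and the 15 bins around the rRNA genes alone 19.0% against 1.10%. In the *rdr3* set the share was 2.25% in *rdr3* and 0.92% in its Col-0. Without the 100 most abundant bins of that set, the order turned round, at 26.0% in *rdr3* and 31.7% in its Col-0, so no direction is given for *rdr3*.

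**Figure D3:**
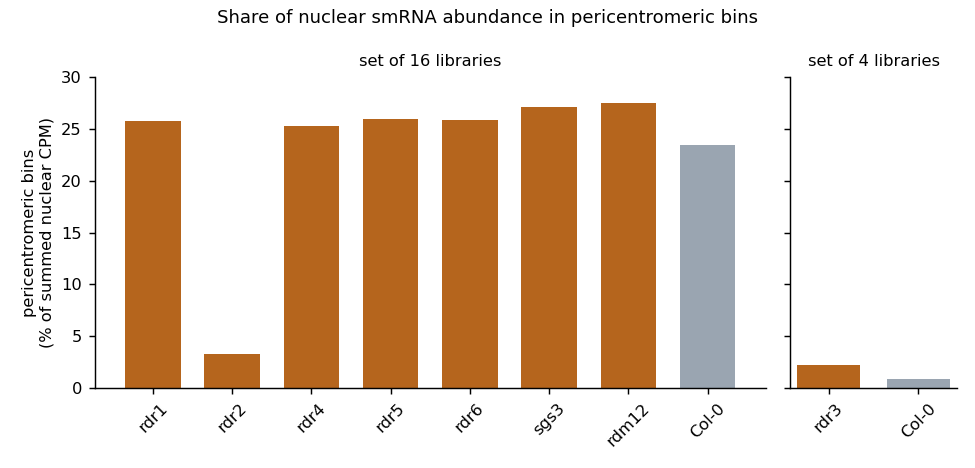
Pericentromeric bins as a percentage of the summed nuclear smRNA CPM derived for each genotype, in the set of 16 libraries (left) and the *rdr3* set of 4 libraries (right), with mutants in brown and Col-0 in grey. Bars are single derived values without an error, and *rdr2* stands at 3.27% while the other mutants of its set and Col-0 lie between 23.5% and 27.5%.

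In the 7 other mutants few pericentromeric bins were called, and in every case a smaller share than over all bins. Decreased members numbered 66 for *sgs3* (0.219%, with 0.361% of all bins), 58 for *rdm12* (0.193%, with 0.336%), 25 for *rdr4* (0.0831%, with 0.143%), 19 for *rdr5* (0.0631%, with 0.123%), 17 for *rdr6* (0.0565%, with 0.163%) and 15 for *rdr1* (0.0498%, with 0.168%). In *rdr3* none was decreased by edgeR, where 0.00167% of all bins were, and 124 members were lower at an unadjusted p under 0.05. Increased members numbered 52 for *sgs3* (all bins 0.32%), 19 for *rdm12* (0.138%), 17 for *rdr6* (0.124%), 15 for *rdr1* (0.0919%), 12 for *rdr5* (0.0752%), 7 for *rdr3* (0.043%) and 4 for *rdr4* (0.0514%). The medians of the abundant pericentromeric bins lay between -0.02 (*rdr1*) and 0.05 (*sgs3*) on the deposited scale. In *sgs3* the 52 increased bins included 32 of the pseudogene and transposable element class, which makes up 45.3% of members and had a median of 0.13. Of the 52, 38 had a log2 CPM of at least 0. Among the 15072 members above that minimum, 8542 were of this class and 5529 had no annotated gene. Bins without an annotated gene, 42.1% of members, were 35 of the 66 decreased in *sgs3* and 37 of the 58 decreased in *rdm12*. No satellite-like bin was called in the 6 mutants other than *rdr2* and *rdr3*. That class has only 261 bins, and at most 0.219% of members were called in either direction in any of these mutants. No trait of the class is read from the absence of calls.

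**Figure D4:**
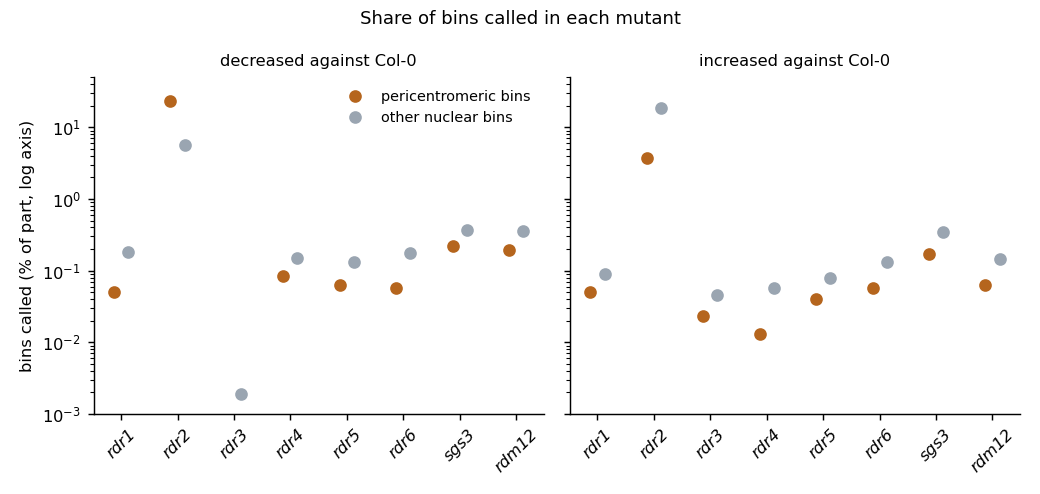
Percentage of bins called decreased (left) or increased (right) against Col-0 in each mutant, on a log axis, for pericentromeric bins (brown) and other nuclear bins (grey), at a log2 fold change of 0.58 and an FDR under 0.05. *rdr2* is highest in both panels, with 23.1% of pericentromeric bins decreased, and no pericentromeric bin was decreased in *rdr3*, so that its point is not drawn.

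Among the few bins that changed strongly outside *rdr2*, some differed in direction between mutants or between neighbours. Chr1_33513, unique at every base, lies in the lncRNA *AT1G07237* and had derived levels of 5.34 (*rdr4*), 4.17 (*rdr5*), 3.79 (*sgs3*), 1.04 (*rdr2*), 0.108 (*rdr1*), 0.0652 (*rdm12*) and 0.0587 CPM (*rdr6*), against 0.635 CPM in Col-0. The mutants thus split into a high group of *rdr4*, *rdr5* and *sgs3* (log2 fold changes of 3.07, 2.71 and 2.58) and a low group of *rdr1*, *rdr6* and *rdm12* (-2.56, -3.44 and -3.29), all called at edgeR FDRs of 1.45e-04 or lower. *rdr6* and its cofactor mutant *sgs3* were on opposite sides. The adjoining Chr1_33514, with a log2 CPM of only -3.06, had the same signs in these 6 mutants. Chr1_33512, adjoining on the other side at -2.66, had the opposite sign in *rdr1* (0.004), *rdr5* (-0.67), *rdr6* (0.43) and *sgs3* (-1.75). It had the same sign in *rdr4* (0.27) and *rdm12* (-0.07). Chr1_33511 and Chr1_33515 had log2 fold changes between -0.52 and 0.51.

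Chr1_33317, at 16658001 to 16658500 without an annotated gene, was low in *rdr1* (0.788 CPM), *rdr5* (0.341 CPM) and *rdm12* (0.309 CPM) and had 6.57 CPM in *rdr4*, 6.46 in *rdr6* and 4.01 in *sgs3*, against 5.13 CPM in Col-0. The log2 fold changes were -2.70 in *rdr1*, -3.91 in *rdr5* and -4.05 in *rdm12*, with SE of 0.22 to 0.27, and the bin was also decreased in *rdr2*, at 2.07 CPM (-1.31, SE 0.30). Chr5_21228, in the misc_RNA *AT5G00505*, was called in *rdm12* alone, at 0.0646 CPM against 1.36 CPM in Col-0 (-4.40, SE 0.45, edgeR FDR 2.34e-19), while *rdr2* stood at 0.529 CPM (-1.36, SE 0.60, FDR 0.0815) and the 5 other mutants of the set were at -0.76 to 0.22. Chr5_27612, with the tRNA gene *AT5G35605*, was decreased in *rdr1*, *rdr4*, *rdr5*, *rdr6*, *sgs3* and *rdm12*, with log2 fold changes of -2.0 to -0.87, and stood at 0.51 in *rdr2*. Chr5_27317, without an annotated gene, was decreased, with log2 fold changes of -2.07 to -0.91, in every mutant of the set but *rdr6* (-0.53, FDR 1). These mutants share the 2 Col-0 libraries, and the part of those libraries in the shared decrease cannot be told apart.

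Neighbouring bins of *AT5G35737*, annotated as a Ta11-like non-LTR retrotransposon, moved in opposite directions. Chr5_27815 had 22.6 CPM in *rdr5* and 17.2 CPM in *rdr6*, against 2.02 CPM in Col-0 (3.48 and 3.09, SE 0.24 each), and was also increased in *rdm12* (1.38) and *rdr2* (1.34). Chr5_27816 was decreased in *rdr5* (-1.15), *rdr6* (-1.28), *sgs3* (-0.75), *rdm12* (-0.75) and *rdr2* (-1.43). In Chr3_26856, in the pseudogene *AT3G32902*, *rdr6* and *sgs3* were both decreased, at 4.83 and 2.91 CPM against 11.4 CPM in Col-0 (-1.23 and -1.97), as was *rdr5* (-1.18).

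Chr1_33851, without an annotated gene, was decreased in *rdr4* and *rdm12*, at 1.88 and 1.82 CPM against 5.24 CPM in Col-0 (-1.47 and -1.53, SE 0.18 each), and in *rdr2*, at 2.99 CPM (-0.81, SE 0.27). Chr2_10967, in the pseudogene *AT2G13250*, was increased in *sgs3* (3.29, SE 0.54), *rdm12* (1.97) and *rdr2* (3.21). Chr3_27076, in the transcribed pseudogene *AT3G33000*, was increased in *rdm12* (2.75, SE 0.70, edgeR FDR 0.0226) and *rdr2* (3.62). The *MIR396b* bin was called in *rdr1* at the margin (2.53, SE 0.66, FDR 0.0499) and, with *rdr2* at 4760 CPM left aside, varied in its set from 67.1 CPM in *rdr5* to 921 CPM in *rdr1*. In *rdr3* the highest of the increased bins with a log2 CPM of at least 0 in its set was Chr4_9410, in the pseudogene *AT4G07890*, at 17.8 CPM against 0.0969 CPM in its Col-0 (7.52, SE 1.63, FDR 0.0157).

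**Figure D5:**
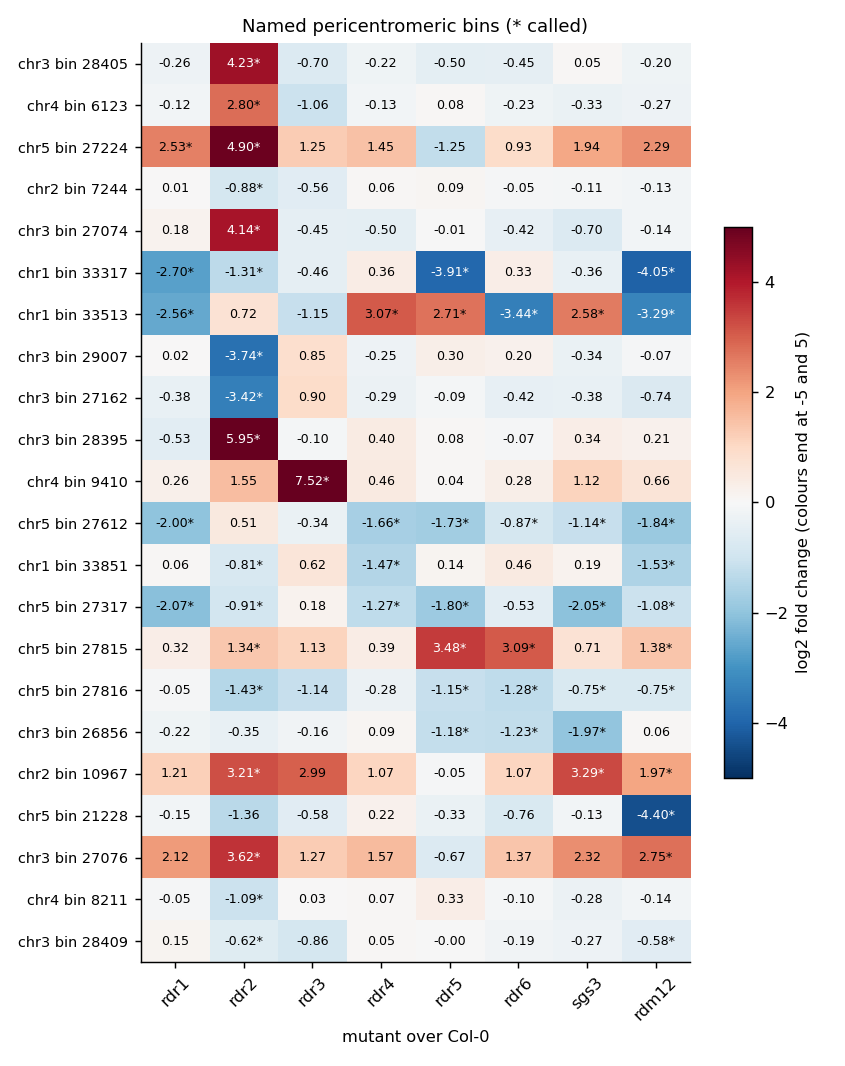
log2 fold change of smRNAs in each mutant over Col-0 (columns) for the 22 pericentromeric bins named in the text (rows), coloured from blue (lower in the mutant) to red (higher), with the value printed and an asterisk where the bin was called. The abundant bins at the top differ from Col-0 in *rdr2*, while Chr1_33513 and Chr1_33317 differ in several mutants and in both directions.

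Few transcripts of the genes in the intervals were called. The tables of total RNA hold 3079 genes whose midpoint lies in an interval, of which 195 had a log2 CPM of at least 0 in the larger set, and the others were below that level. None was decreased or increased in *rdr2* by edgeR, where 0.0595% and 0.0625% of all gene rows were, and 11 and 14 passed an unadjusted p under 0.05. Increased genes numbered 3 for *rdr4* (0.393% of all gene rows), 2 for *rdr5* (0.128%), 2 for *sgs3* (0.0923%), 1 for *rdr1* (0.19%), 1 for *rdr6* (0.0565%) and none in *rdr3* (0.0179%) or *rdm12* (0.0119%), where 5 and 8 were higher at an unadjusted p under 0.05. Decreased genes numbered 1 in *sgs3* (0.0863%) and 1 in *rdm12* (0.0119%). None was decreased in *rdr1* (0.0536%), *rdr3* (0%), *rdr4* (0.0565%), *rdr5* (0.0833%) and *rdr6* (0.0893%), where 14 to 18 were lower at an unadjusted p under 0.05. The median log2 fold change of the genes with a log2 CPM of at least 0 was -0.22 for 310 genes of the intervals in *rdr3*, against 0.22 over all genes of its table, and between -0.10 and 0.00 for the 195 genes in the other mutants.

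The gene called most often was the ncRNA *AT3G41761* (chromosome 3, 14195917 to 14196078), beside the rRNA genes. It was increased in *rdr1* (0.88, SE 0.17), *rdr4* (0.85, SE 0.18), *rdr5* (0.83, SE 0.17), *rdr6* (0.92, SE 0.17) and *sgs3* (0.76, SE 0.18), and stood at 0.68 in *rdr2* (FDR 0.101) and 0.37 in *rdm12* (FDR 1). These mutants share 2 Col-0 libraries of total RNA, so the calls are not independent. The part of those libraries in the shared rise cannot be told apart. The transcribed pseudogene *AT3G32990*, named after its values had been seen, was decreased in *sgs3* (-1.44, SE 0.23) and *rdm12* (-1.08, SE 0.22). The others were *CRCK3*, a receptor-like cytoplasmic kinase gene (*rdr4*, 1.36, SE 0.34), *AT5G33370*, a GDSL lipase gene (*rdr4*, 0.72, SE 0.15), the transcribed pseudogene *AT5G34795* (*rdr5*, 6.40, SE 1.54, log2 CPM -1.04) and the annexin gene *ANNAT1* (*sgs3*, 0.86, SE 0.20).

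The gene tables of smRNAs were fitted apart from the bin tables, and on the sense strand of the same 3079 genes smRNAs were decreased at 893 genes (29.0%) and increased at 135 (4.38%) in *rdr2*, where 8.06% and 25.6% of all gene rows were. On the antisense strand they were decreased at 161 (5.23%) and increased at 67 (2.18%), where 2.06% and 12.6% were.

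Of 13 genes of the RNA-directed DNA methylation and maintenance machinery, only *RDR2* itself (-4.48) and *NRPD1*, the largest subunit of RNA polymerase IV (1.45, edgeR FDR 8.26e-05), were called in *rdr2* total RNA. The genes *SHH1*, *CLSY1*, *DCL3*, *AGO4*, *NRPE1*, *DRM2*, *DDM1*, *MET1*, *CMT2*, *CMT3* and *SUVH4* were not, with log2 fold changes of -0.48 to 0.42 in *rdr2*. In the 7 other mutants none of the 13 was called.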

How the data were processed

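The authors trimmed smRNA reads with cutadapt, aligned them to TAIR10 with TopHat (up to 2 mismatches and 100 alignments a read), counted them in 500-nt bins with bedtools and in genes by strand with HTSeq, and tested every mutant against Col-0 with edgeR; versions are not given in the sources used here. The deposited values are the authors' log2 fold changes and log2 CPM, with p-values and FDRs per the file headers. No values per library were at hand, so no count model was fitted. The columns are the authors' own comparisons, used because they are the only measurements in the tables. Of 40 tables, 8 were not used.

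Calls, medians, shares and derived levels were computed in Python 3.11.15 (pandas 2.3.3, scipy 1.17.1). Group levels were solved from the mean CPM and the ratios to Col-0, a step tested on simulated counts. An approximate SE is the fold change divided by the normal quantile of its p-value. The deposited FDR was adjusted over all rows of a table, gene tables including transposable element rows, which were not analysed here. Sequence features came from TAIR10.1, whose nuclear chromosome lengths match TAIR10.

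Bins were named as the 5 most abundant members at least 20 bins apart, in each mutant the 2 lowest decreased and the highest increased with a log2 CPM of at least 0, and in *rdr2* the 3 most abundant decreased and not decreased members. Genes were named as the 3 highest increased in a mutant's total RNA. The members and lists were chosen with earlier results of these data known. Nothing in the labels says that the 2 libraries of a group came from separate plants, so p-values measure only the spread between these libraries. Other limits, scales and subsets were tried and are given in the closing section.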

Additional observations from a re-analysis of the deposited data

How the results depend on the processing

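Of the alternative values, 144 stayed within the spread or within 1.5 times the count, and 72 moved; some medians near 0 in the mutants other than *rdr2* turned sign with the scale, and the order of *rdr3* and its Col-0 turned round with the bins counted; no cause was tested unless the alternative itself keeps fewer bins. An FDR limit of 0.1 gave 1 decreased bin in *rdr3*, 105 in *sgs3* and 30 increased in *rdm12*. A limit of 0.01 gave 39 decreased bins in *sgs3* and 34 in *rdm12*, and 5, 2, 2, 7, 10, 25 and 11 increased in *rdr1*, *rdr3*, *rdr4*, *rdr5*, *rdr6*, *sgs3* and *rdm12*. A log2 fold change limit of 1 gave 3247, 16, 10, 23 and 37 decreased bins in *rdr2*, *rdr4*, *rdr6*, *sgs3* and *rdm12*, and 8 and 32 increased in *rdr1* and *sgs3*. Adjusting again over bins with a log2 CPM of at least 0 gave 5 and 114 decreased bins in *rdr3* and *sgs3*, and 24, 344 and 15 increased in *rdr1*, *rdr2* and *rdr3*. Centring on all 438 bins with a miRNA gene, whatever their abundance, gave 8, 235 and 33 increased bins in *rdr1*, *rdr2* and *sgs3*, and medians of -0.38, -4.99, -0.26, -0.28 and -0.36 in *rdr1*, *rdr2*, *rdr4*, *sgs3* and *rdm12*. The centring moved the fold changes and kept the deposited FDR, so these counts are no test against the miRNA bins. Scaling to each group's total, chosen after seeing the data, gave medians of -3.79, 1.32, 0.29 and 0.27 in *rdr2*, *rdr3*, *sgs3* and *rdm12*.

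Bins with at least 90% unique words held 910, 15, 9 and 32 decreased bins in *rdr2*, *rdr4*, *rdr6* and *sgs3*, and 8, 687, 3, 21 and 8 increased in *rdr1*, *rdr2*, *rdr3*, *sgs3* and *rdm12*. Their shares of the summed CPM were 7.93% (*rdm12*), 7.65% (*sgs3*), 7.0% (*rdr6*), 6.12% (*rdr5*), 6.38% (*rdr4*), 0.519% (*rdr2*) and 6.53% (*rdr1*), against 5.59% in Col-0, and 0.665% in *rdr3*, against 0.11% in its Col-0. The central part of each interval held, as decreased and increased bins, 15 and 9 (*rdm12*), 24 and 24 (*sgs3*), 5 and 2 (*rdr6*), 4 and 3 (*rdr5*), 4 and 0 (*rdr4*), 3655 and 462 (*rdr2*) and 1 and 6 (*rdr1*). Without the 100 most abundant bins of the genome the share was 8.96% in *rdr2* against 33.6% in Col-0, and 26.0% in *rdr3* against 31.7% in its Col-0.

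No paired analysis was possible because the tables hold no value per library and the comparisons come as finished fits. For the same reason leaving out each replicate and another normalization were not run, and whether 1 library decides a call was not tested.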

Other observations

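Over the 6 mutants other than *rdr2* and *rdr3*, the range between the highest and the lowest log2 fold change of a bin had a median of 0.38 and a 95th percentile of 0.757 over the 15072 pericentromeric bins with a log2 CPM of at least 0. In 23 bins it was 2 or more, and in 3 bins 4 or more. These 3 were Chr1_33513 (6.51), Chr5_21228 (4.62) and Chr1_33317 (4.41), a choice made after their values had been seen, with no test of the range.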
